A study of Homo sapiens with 6 samples.

Results

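A set of 36 genes for protein folding, disulfide oxidation and quality control in the endoplasmic reticulum (ER), and for the unfolded protein response, was followed in HEK293 cells exposed to neighbours that make reactive oxygen species. The set was given by name, and a gene was analysed when at least 10 reads were counted in at least 3 of the 6 libraries, which 35 of the 36 genes met, out of 23686 genes in the files. HEK293, a long-established human line of embryonic kidney origin, was used throughout, and per the labels the sequenced cells carried GFP and were collected by fluorescence sorting. In the co-culture group (3 libraries) the GFP cells had shared a dish for 10 h with HEK293 cells carrying DAAO, in medium with 25 µM D-alanine. DAAO is the usual short name of D-amino acid oxidase, which makes hydrogen peroxide from D-amino acids. The control group (3 libraries) was labelled Wt, was GFP-positive and was sorted in the same way, and the labels repeat the co-culture text for it, so whether it met D-alanine or a partner cell cannot be told. The labels do not say that the libraries of a group came from separate cultures, so p-values measure the spread between these libraries, which may be technical. RNA from a sorted pool does not separate more cells expressing a gene from more RNA per cell.

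The ER folds secreted and membrane proteins with the chaperones HSPA5 (BiP) and HSP90B1 (GRP94), with the lectins calnexin and calreticulin, and with protein disulfide isomerases that the ERO1 oxidases re-oxidise, a reaction that itself yields hydrogen peroxide. When unfolded proteins accumulate, the membrane sensors ATF6, IRE1 (gene ERN1) and PERK (gene EIF2AK3) start the unfolded protein response. ATF6 and the spliced form of XBP1 then raise transcription of chaperones and of the machinery that extracts misfolded proteins for degradation, while PERK acts through ATF4 and DDIT3 (CHOP). Gene counts report RNA level only, so XBP1 splicing, ATF6 cleavage and kinase activity were not measured.

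The libraries held between 19091085 and 36250314 reads assigned to genes. Co-culture libraries 2 and 3 had a median share of forward-strand reads of 0.124% and 0.211%, against 1.57% to 1.75% in the other 4, so a fit with this class as a term, in which co-culture library 1 alone is compared with the controls, is given beside the results that passed. Co-culture library 1 also had the highest share of multimapping reads (8.42%, against 6.48% to 7.03%). All 8 genes listed as typical of HEK293 were read in every library, VIM at 925 to 1318 CPM (a gene's reads scaled to a common library size), and 9 of 10 markers of other cell types stayed under 1 CPM in all 6. The summed level of those 10 markers was 0.810 to 1.25 CPM in co-culture and 1.095 to 1.47 CPM in the controls, with CD3E and HBB at 0 reads. The human DAAO gene, DAO, had 0 reads as well. The partner cells were HEK293 too, so markers of other cell types cannot show whether any were sorted with the GFP cells. Reads of DAO would show them only if their DAAO had the human sequence. The part of any of these values in the results was not tested.

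The ER genes moved little. Of the 35, DERL3 and ERO1L were higher in co-culture and none was lower at an adjusted p under 0.05 in edgeR's quasi-likelihood test, adjusted over 14582 genes. That is 5.71% of the members, beside 4.83% of all tested genes (2.66% higher and 2.17% lower), so the share of members called was near the background. DESeq2 and limma-voom called the same 2 genes. At an unadjusted p under 0.05, 4 members stood out (DERL3, ERO1L, ATF6 and TXNDC11), where the background was 23.2%. The median log2 fold change was -0.01, with 17 genes above and 18 below 0. The median size of the change was 0.08, against 0.13 over all tested genes. The lowest mean level was 9.36 CPM among the members and 0.365 CPM among all tested genes, and the median standard error (SE) 0.07 against 0.09. The part of level in the smaller changes was not tested.

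The intervals were narrow, but they rest on the spread between these libraries, which may be technical. They therefore do not bound a change over separate cultures. The 95% interval of the log2 fold change lay within 0.5 of 0 for 34 of the 35 genes, against 10080 of 14582 tested genes, and the exception was DERL3. For all 35 the interval excluded a doubling and a halving, as it did for 13245 of the 14582 tested genes. Summed over the members, the level was 8916, 8727 and 8816 CPM in co-culture libraries 1, 2 and 3 and 8328, 9025 and 8794 CPM in controls 1, 2 and 3. The sums overlapped, with control 1 lowest and control 2 highest.

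**Figure D1:**
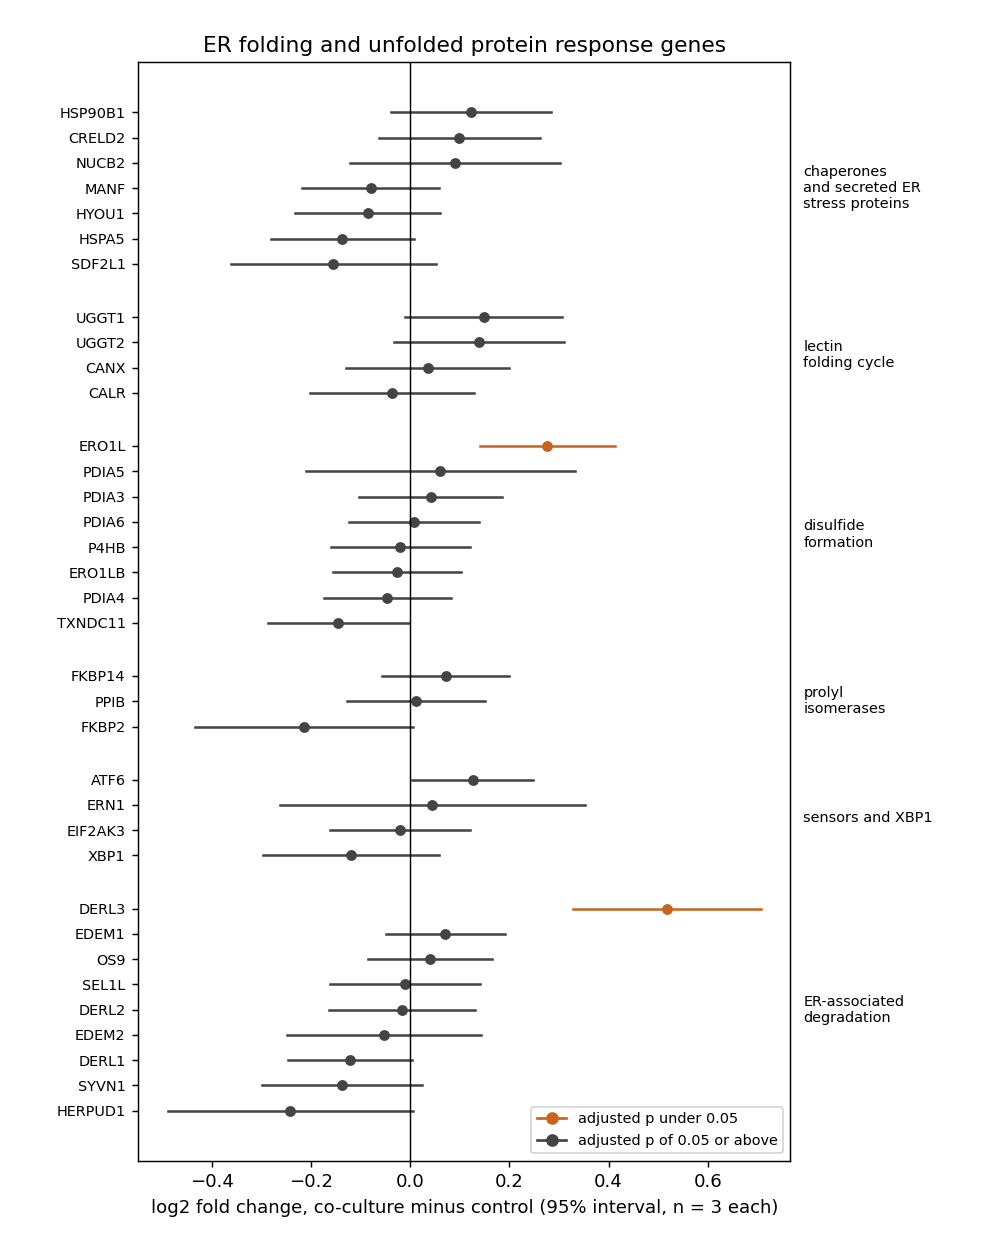
Log2 fold change of each ER gene, co-culture minus control, with its 95% interval from edgeR's fit (3 libraries per group), grouped by role; the horizontal axis is on the log2 scale. DERL3 at 0.52 and ERO1L at 0.28 are the 2 genes past the threshold, and the other 33 lie between -0.24 and 0.15.

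Promoters were read to see which members carry the DNA elements that ATF6 and XBP1 are known to bind. RefSeq promoters (GRCh38.p14, 250 bases before to 50 after each start) were matched by symbol for 32 of the 36 genes, all but PDIA3, FKBP14, DERL1 and DERL3. The ER stress element, ERSE, was searched on both strands as CCAAT and CCACG separated by 9 bases. It was found in 8 of the 32 genes (HSPA5, HSP90B1, CRELD2, CALR, CANX, PDIA6, ERO1LB and XBP1), against 0.0916% of all 27305 genes with a promoter. ERSE-II, ATTGG and CCACG separated by 1 base, was found in HERPUD1, SDF2L1 and HYOU1 (0.0696% of the 27305 genes). TGACGTGG, the unfolded protein response element, was found in HYOU1, TXNDC5 and TXNDC11 (0.927% of the 27305 genes). In HYOU1 it overlaps the ERSE-II that begins 185 bases before the start. Of the 11 members with an ERSE or ERSE-II, 7 stretches are shown so that the element can be seen in the classical targets of the response, printed 5′ to 3′ along the gene, with the letters of the element in capitals.

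HSPA5, chr9:125241371-125241429, minus strand: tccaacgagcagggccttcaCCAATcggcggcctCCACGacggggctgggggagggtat
HSP90B1, chr12:103930196-103930254, plus strand: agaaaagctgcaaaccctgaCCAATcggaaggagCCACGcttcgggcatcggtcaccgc
CALR, chr19:12938364-12938422, plus strand: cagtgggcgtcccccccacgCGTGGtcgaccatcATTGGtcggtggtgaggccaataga
XBP1, chr22:28800583-28800641, minus strand: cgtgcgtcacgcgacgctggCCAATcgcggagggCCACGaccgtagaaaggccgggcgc
HERPUD1, chr16:56932005-56932055, plus strand: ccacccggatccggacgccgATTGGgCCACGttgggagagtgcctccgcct
SDF2L1, chr22:21642094-21642144, plus strand: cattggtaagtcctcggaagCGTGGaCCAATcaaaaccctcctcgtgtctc
HYOU1, chr11:119057254-119057304, minus strand: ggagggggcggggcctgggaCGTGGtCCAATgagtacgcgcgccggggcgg

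In HSPA5 the element begins 66 bases before the start, in XBP1 52 and in HERPUD1 117. In the stretches of CALR, SDF2L1 and HYOU1 it lies on the opposite strand. HSP90B1 has a further ERSE on the opposite strand, not shown, that begins 89 bases before the start. The HYOU1 element shown begins at 79, and the one that TGACGTGG overlaps, at 185, is not shown. None of the 11 genes with an ERSE or ERSE-II passed the threshold, beside 4.83% of all tested genes. At that share 11 genes are too few to tell them from the background. Their log2 fold changes ran from -0.24 (HERPUD1) to 0.12 (HSP90B1), with 4 above and 7 below 0 and a median of -0.04. The median was 0.00 for the 20 matched and tested members with neither element, and ERO1L, 1 of those 20, passed. A match is a run of letters, not evidence of binding.

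Among the chaperones and the secreted proteins made with them, 0 of 7 passed, beside 4.83% of all tested genes. Their median log2 fold change was -0.08. HSPA5, the Hsp70 of the ER and the usual readout of ER stress, was at 582.6, 590.0 and 610.1 CPM in co-culture libraries 1, 2 and 3 and at 611.8, 688.0 and 660.2 CPM in controls 1, 2 and 3. Every co-culture value lay below every control, narrowly so for co-culture 3 and control 1. The log2 fold change was -0.14 (SE 0.07, 95% interval -0.28 to 0.01, edgeR adjusted p 0.239). Leaving out control 1 brought HSPA5 past the threshold, at -0.18 (edgeR adjusted p 0.0168), and no other of the 15 alternative settings did. In that setting 20.8% of all tested genes passed.

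HSP90B1, the ER Hsp90, was at 1673, 1547 and 1423 CPM in co-culture and at 1393, 1454 and 1418 CPM in the controls, which is 0.12 on the log2 scale (SE 0.07, edgeR adjusted p 0.346). Co-culture 1 and 2 stood above all controls and co-culture 3 fell among them. The reads of HSP90B1 per read of HSPA5, a ratio that no scaling of the libraries touches, were 2.87, 2.62 and 2.33 in co-culture and 2.28, 2.11 and 2.15 in the controls. The groups did not overlap, with an exact two-sided permutation p of 0.1, the smallest that 3 against 3 libraries allow. This was 1 of 5 ratios, all chosen after the values were seen, and no design of this size can bring one under 0.05. Of the 5, only the reads of UGGT1 per read of UGGT2 overlapped, at 6.89, 6.62 and 7.79 in co-culture and 6.50, 7.63 and 7.01 in the controls (exact two-sided permutation p 0.8).

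SDF2L1, a partner of HSPA5 that is induced in ER stress, was at 28.0, 30.2 and 29.4 CPM in co-culture and at 35.8, 33.9 and 28.1 CPM in the controls (log2 fold change -0.15, SE 0.09, edgeR adjusted p 0.349). Control 3 sat with the co-culture libraries. CRELD2, an ER protein with disulfide isomerase activity, was at 42.2, 44.9 and 45.7 CPM against 38.2, 42.3 and 43.7 CPM (0.10, SE 0.07), and the groups overlapped. MANF, a secreted ER stress protein, was at 63.4, 64.0 and 63.2 CPM against 64.8, 71.2 and 65.5 CPM (-0.08, SE 0.06), all co-culture values being below all controls. HYOU1, the large ER Hsp70 relative, had a log2 fold change of -0.09 (SE 0.07). NUCB2, a calcium-binding protein of the secretory pathway, was at 72.3, 72.0 and 55.6 CPM against 64.2, 61.6 and 61.4 CPM, so that co-culture held both its highest values and its lowest. The edgeR adjusted p-values of these 4 lay between 0.453 and 0.611.

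**Figure D2:**
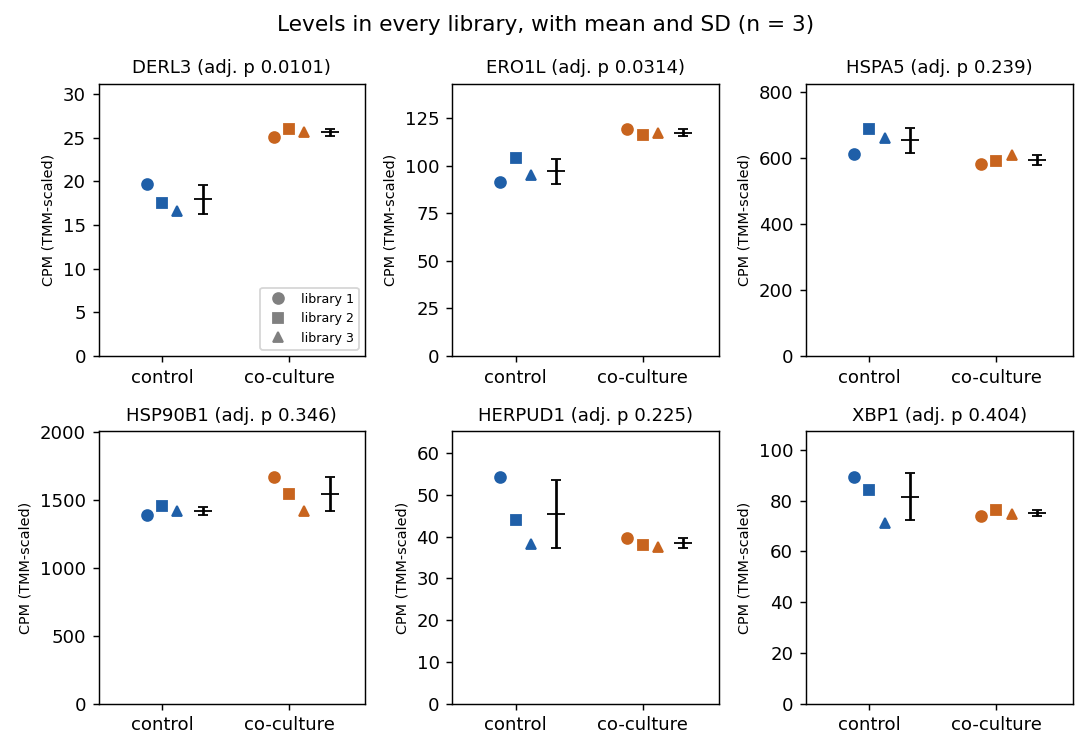
CPM (scaled by trimmed means, linear axis from 0) in each library for 6 ER genes; symbols mark library 1, 2 or 3, and the black bar and whiskers are mean and SD (n = 3). DERL3 and ERO1L separate the groups, HSPA5 separates them narrowly, and HERPUD1 and XBP1 spread widely over the 3 controls.

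In the lectin cycle, calnexin and calreticulin hold glycoproteins and UGGT1 re-tags those not yet folded. Of its 4 genes 0 passed, beside 4.83% of all tested genes. CALR was at 909.9, 885.7 and 945.3 CPM in co-culture and at 844.1, 991.9 and 974.1 CPM in the controls, and CANX at 1394, 1319 and 1350 CPM against 1208, 1430 and 1325 CPM. For both, control 1 was the lowest of the 6 libraries and control 2 the highest. The log2 fold changes were -0.04 (SE 0.08) and 0.04 (SE 0.07). UGGT1 was at 306.6, 308.1 and 311.3 CPM against 249.3, 291.7 and 294.7 CPM (0.15, SE 0.07, edgeR adjusted p 0.243), with all co-culture values above all controls. Its relative UGGT2 had a log2 fold change of 0.14 (SE 0.08) with overlapping groups.

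Of the genes for disulfide formation, 1 of the 8 tested passed, beside 4.83% of all tested genes. A single gene is too few to compare these shares. ERO1L (current symbol ERO1A), the oxidase that passes electrons from protein disulfide isomerase to oxygen, was at 119.2, 115.9 and 116.9 CPM in co-culture and at 91.6, 103.9 and 95.2 CPM in the controls. All co-culture libraries lay above all controls. ERO1L rose 1.21-fold (95% interval 1.103 to 1.33), which is 0.28 on the log2 scale (SE 0.06), at an edgeR adjusted p of 0.0314. With the forward-strand class as a term the log2 fold change was 0.30 (edgeR adjusted p 0.279), and with a replicate block it was 0.28 (edgeR adjusted p 0.0966). The call was also lost without any 1 of co-culture 1, 2 or 3 or controls 2 or 3, at log2 fold changes from 0.26 to 0.33 (edgeR adjusted p from 0.0512 to 0.152), and held without control 1 (0.24).

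The second oxidase, ERO1LB (current symbol ERO1B), was at 91.7, 89.8 and 84.2 CPM in co-culture and at 90.4, 91.3 and 88.8 CPM in the controls, which is -0.03 on the log2 scale (SE 0.06, edgeR adjusted p 0.819). Its groups overlapped. Per read of ERO1LB there were 1.30, 1.29 and 1.39 reads of ERO1L in co-culture and 1.013, 1.14 and 1.07 in the controls. This ratio did not overlap (exact two-sided permutation p 0.1, the smallest possible). It was chosen after ERO1L was seen to separate the groups, so it is no further evidence of a rise in ERO1L. The ERSE lies in the promoter of ERO1LB, and none of the 3 elements was found in that of ERO1L.

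None of the isomerases that ERO1 serves passed. P4HB, the principal protein disulfide isomerase, was at 695.0, 742.1 and 760.7 CPM in co-culture and at 720.6, 755.9 and 752.0 CPM in the controls. PDIA4 was at 404.8, 392.4 and 413.2 CPM against 420.1, 421.1 and 408.5 CPM. Both overlapped, with log2 fold changes of -0.02 (SE 0.06) and -0.05 (SE 0.06). PDIA3, PDIA5 and PDIA6 had log2 fold changes of 0.04, 0.06 and 0.01, and the 95% intervals of P4HB, PDIA3, PDIA4 and PDIA6 stayed between -0.17 and 0.19. TXNDC11, a thioredoxin-domain protein, was at 32.8, 32.1 and 32.2 CPM against 36.2, 35.9 and 35.2 CPM. It did not overlap between the groups but missed the threshold, at -0.14 (SE 0.07, edgeR adjusted p 0.212).

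TXNDC5, another disulfide isomerase, was the member that could not be tested. It had 8, 9 and 23 reads in co-culture and 8, 9 and 14 in the controls. A readthrough gene over the same exons, BLOC1S5-TXNDC5, is listed at 0 reads in all 6 libraries, and reads that fall in 2 genes of the same strand are not assigned by STAR; the part of this in the low count was not tested. PDIA6 and PPIB depended on strand in another way. Counted without regard to strand they kept 57.9% and 28.6% of their reverse-strand reads, against 97.4% (SYVN1) to 104.2% (TXNDC5) for the others.

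The prolyl isomerases, which turn peptide bonds before proline, had 0 of 3 past the threshold, beside 4.83% of all tested genes. FKBP14 was at 67.8, 68.9 and 67.5 CPM in co-culture and 63.1, 66.1 and 65.2 CPM in the controls (log2 fold change 0.07, SE 0.06). FKBP2 had the value furthest from 0, at -0.21 (SE 0.10, edgeR adjusted p 0.228), with overlapping groups. PPIB stood at 0.01 (SE 0.06).

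For the sensors, 0 of 4 genes passed, beside 4.83% of all tested genes. ATF6 was at 106.1, 102.2 and 107.3 CPM in co-culture and at 93.9, 97.7 and 97.7 CPM in the controls. All co-culture values were above all controls, and the log2 fold change was 0.13 (SE 0.06, 95% interval 0.00 to 0.25, edgeR adjusted p 0.201). ERN1, at the lowest level per kb of the members tested, was at 9.81, 9.22 and 9.55 CPM against 9.81, 7.36 and 10.4 CPM (0.04, SE 0.14). EIF2AK3 was at 48.4, 49.0 and 46.9 CPM against 47.5, 47.9 and 51.0 CPM (-0.02, SE 0.06). Both overlapped.

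XBP1 was at 74.1, 76.4 and 74.8 CPM in co-culture and at 89.4, 84.1 and 71.4 CPM in the controls. The co-culture libraries were close together and fell inside the range of the controls, where control 1 was highest and control 3 lowest. The log2 fold change was -0.12 (SE 0.08, edgeR adjusted p 0.404).

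**Figure D3:**
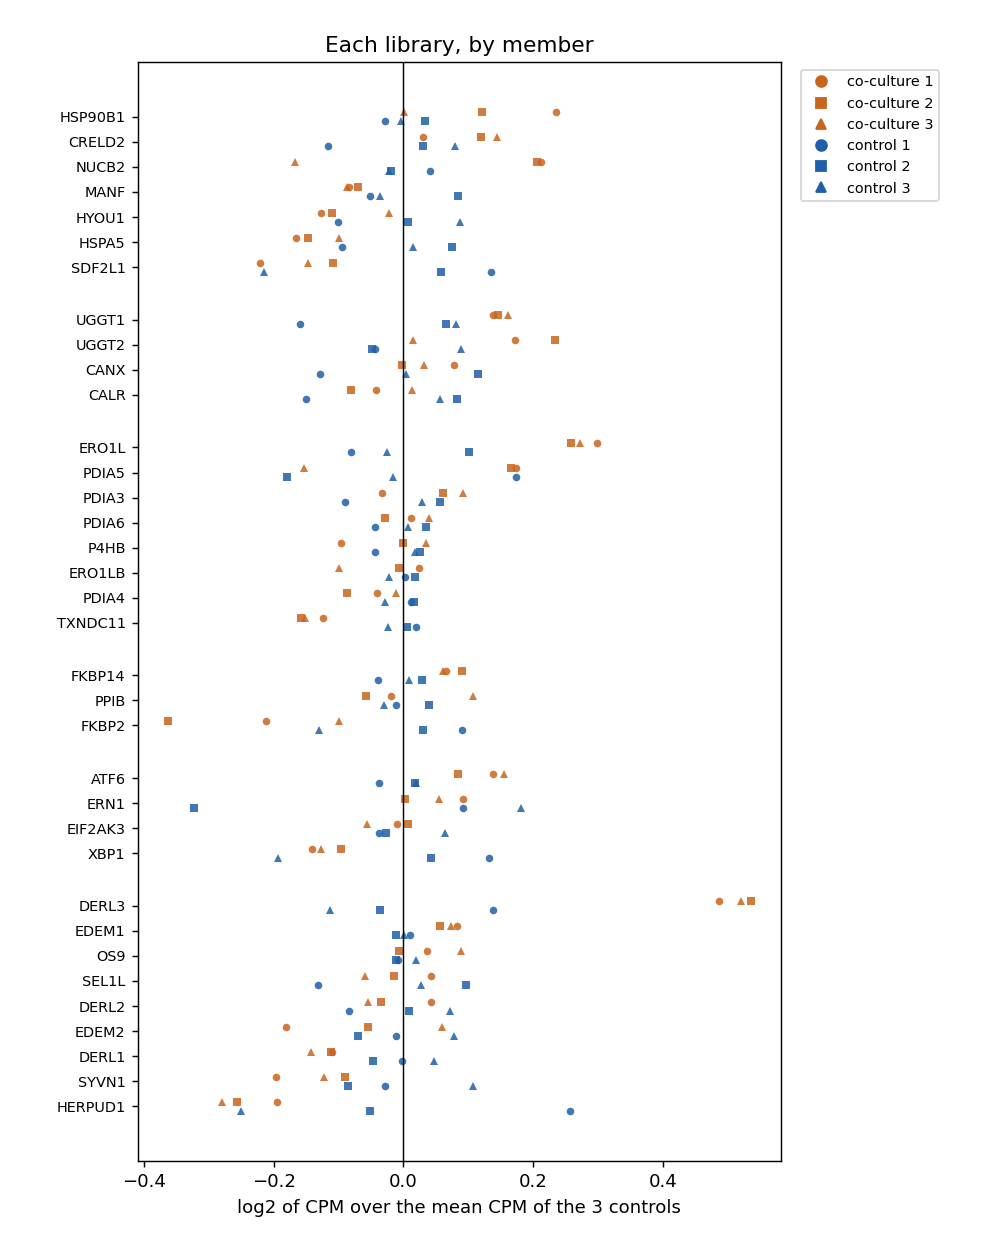
Each ER gene (rows, in the order of the plot of fold changes) in each library, as the log2 ratio of its CPM to the mean of the 3 controls; orange is co-culture, blue is control, and the symbol is the library number. The 3 orange points of DERL3 and ERO1L lie clear of the blue ones, while for most genes the colours mix.

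ER-associated degradation recognises misfolded proteins, moves them to the cytosol through a membrane complex and hands them to the proteasome. Of its 9 members 1 passed, beside 4.83% of all tested genes, and a single gene is too few to compare these shares. DERL3, a derlin of that membrane complex, was at 25.1, 26.0 and 25.7 CPM in co-culture (502, 547 and 920 reads) and at 19.7, 17.5 and 16.6 CPM in the controls (390, 335 and 432 reads). Every co-culture library was above every control. DERL3 rose 1.43-fold, or 0.52 on the log2 scale (SE 0.09, 95% interval 0.33 to 0.71, edgeR adjusted p 0.0101). By size it ranked 219th of the 704 genes called, and ERO1L 624th. With the forward-strand class as a term DERL3 stood at 0.49 (edgeR adjusted p 0.216). The call was lost too when co-culture 1 was left out (0.53, edgeR adjusted p 0.0572), or co-culture 2 (0.51, edgeR adjusted p 0.0834), or control 2 (0.50, edgeR adjusted p 0.0738), and held in the other 11 settings.

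Neither of the other derlins passed. DERL1 was at 83.7, 83.6 and 81.8 CPM in co-culture and at 90.2, 87.4 and 93.3 CPM in the controls, below them throughout, at -0.12 on the log2 scale (SE 0.06, edgeR adjusted p 0.226). DERL2 was at 56.6, 53.7 and 53.0 CPM against 51.9, 55.3 and 57.8 CPM (-0.02, SE 0.07). Per read of DERL2 there were 0.443, 0.484 and 0.485 reads of DERL3 in co-culture and 0.380, 0.316 and 0.287 in the controls. Per read of DERL1 there were 0.300, 0.311 and 0.314 against 0.219, 0.200 and 0.178. Neither ratio overlapped between the groups (exact two-sided permutation p 0.1 for each, the smallest possible). Both were chosen after DERL3 was seen to separate the groups, so they are no further evidence of a rise in DERL3. Per kb of exon, DERL3 was the least abundant derlin in the controls, at 5.37 CPM beside 12.9 for DERL2 and 26.0 for DERL1. These values depend on the exon lengths used (3336, 4251 and 3469 bases). Before dividing by length, the control means of DERL3, DERL2 and DERL1 were 17.9, 55.0 and 90.3 CPM.

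HERPUD1, a ubiquitin-like membrane protein that is among the most ER stress-responsive genes of this pathway, was at 39.8, 38.1 and 37.5 CPM in co-culture and at 54.4, 43.9 and 38.2 CPM in the controls. Its co-culture libraries lay close together, control 1 stood highest and control 3 fell among them. The log2 fold change was -0.24 (SE 0.11, 95% interval -0.49 to 0.01, edgeR adjusted p 0.225). It rested on single controls, being -0.09 (edgeR adjusted p 0.384) without control 1 and -0.36 without control 3, where it passed (edgeR adjusted p 0.0448).

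The ubiquitin ligase SYVN1 (HRD1) was at 37.6, 40.5 and 39.6 CPM in co-culture and at 42.3, 40.6 and 46.4 CPM in the controls, below them by a narrow margin (log2 fold change -0.14, SE 0.07, edgeR adjusted p 0.291). Its partner SEL1L had a log2 fold change of -0.01 (SE 0.07). The mannosidase-like EDEM1 was at 91.1, 89.4 and 90.4 CPM against 86.6, 85.3 and 86.0 CPM, without overlap (0.07, SE 0.05, edgeR adjusted p 0.466). EDEM2 and the lectin OS9 stood at -0.05 and 0.04 with overlapping groups.

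In all, 11 members did not overlap between the groups, 6 of them higher in co-culture (DERL3, ERO1L, UGGT1, ATF6, FKBP14 and EDEM1) and 5 lower (HSPA5, MANF, TXNDC11, SYVN1 and DERL1). That is 31.4%, beside 29.3% of all tested genes (14.3% higher and 15% lower). The spread within a group was small. The median coefficient of variation of the members was 5.35% over the controls and 3.28% over co-culture. For all tested genes, which reach down to lower levels, it was 8.68% and 5.43%. Control 1 held the highest or lowest value of the 6 libraries for 18 of the 35 members, 51.4% beside 50.9% of all tested genes. Co-culture 3 did so for 14 (40% beside 21.3%) and control 3 for 9 (25.7% beside 40.4%), differences that were not tested. Leaving out control 1 raised the number of genes called from 704 to 3069 (20.8% of those tested). The members called rose from 2 to 3 (8.57%), HSPA5 being the third.

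Levels differed far more between members than between groups. Per kb of merged exon (GENCODE release 29), HSP90B1 and CALR led in the controls at 496 and 492 CPM per kb, followed by CANX at 297, P4HB at 285, PPIB at 227 and HSPA5 at 167. HSP90B1 and CALR are closer to each other than the SD of CALR over the controls (8.61% of its mean). ERO1L stood below ERO1LB in the controls, at 18.2 against 19.7, and above it in co-culture, at 22.0 against 19.4 CPM per kb. The order in the controls depends on the exon lengths used (5322 bases for ERO1L and 4567 for ERO1LB). Before dividing by length, ERO1L was the higher in the controls as well, at a mean of 96.9 against 90.2 CPM. DERL3 and ERN1 were the last 2 of the 35 in the controls, at 5.37 and 0.939. The place of DERL3 depends on exon length too, since before the division PDIA5 was lower, at a control mean of 14.8 against 17.9 CPM.

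**Figure D4:**
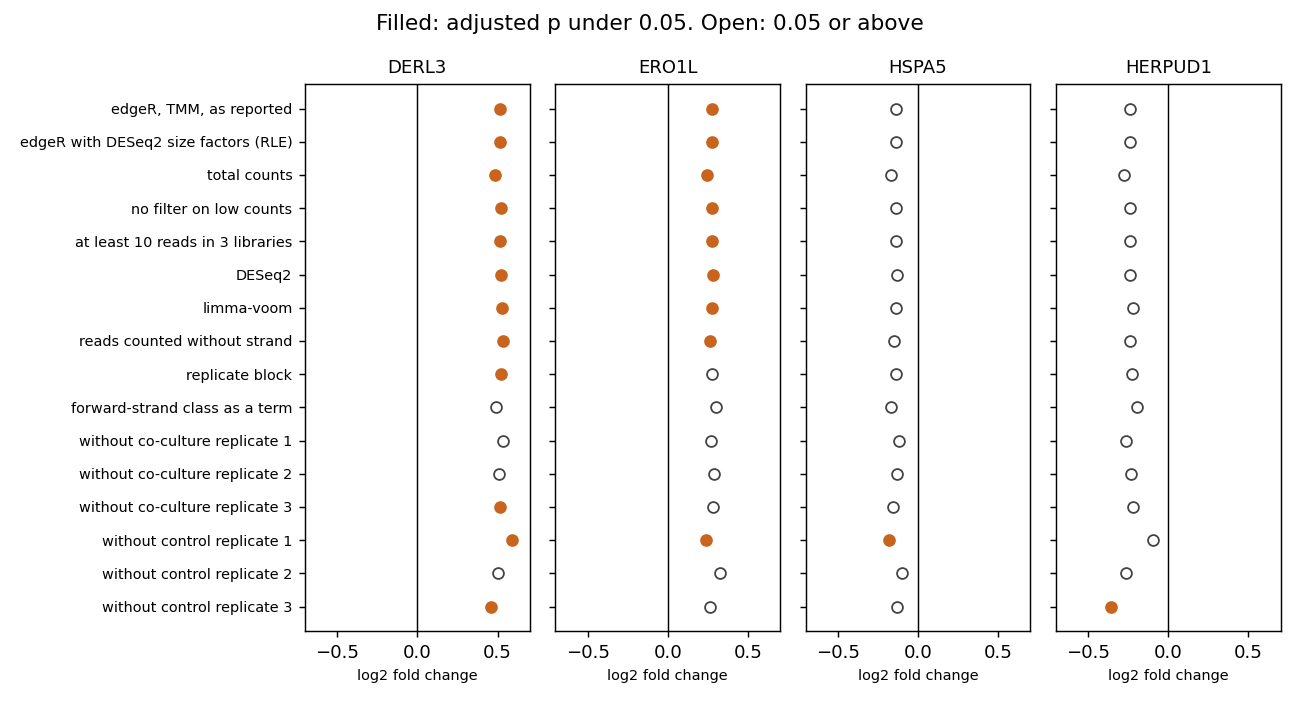
Log2 fold change of 4 ER genes under the reported fit and 15 other settings (rows); a filled point had an adjusted p under 0.05. The values hold their sign in every setting shown, DERL3 between 0.46 and 0.59 and ERO1L between 0.24 and 0.33, while the calls change.

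Genes of the same pathways outside the set were taken from 8 written lists with 112 genes, of which 109 could be tested. At an adjusted p under 0.05, 1 was higher and 1 lower (1.83%, beside 4.83% of all tested genes). Of the 109, 29 had an unadjusted p under 0.05, where the background was 23.2%. The groups did not overlap for 35 (32.1%, beside 29.3%). In the PERK and ATF4 branch, DDIT3 fell and 0 of the other 15 genes passed. DDIT3, the stress transcription factor CHOP, was at 9.11, 10.8 and 10.1 CPM in co-culture and 19.4, 21.3 and 18.5 CPM in the controls, or -0.98 on the log2 scale (SE 0.10, edgeR adjusted p 0.00105), and it passed in all 15 other settings. Forward-strand reads made up 29.2% of the reads over DDIT3. The median of the list was -0.10, with 6 genes above and 10 below 0.

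Its named neighbours in that branch did not pass. ATF4, a transcription factor that acts on it, was at 341.5, 377.1 and 399.4 CPM in co-culture and 373.7, 334.9 and 353.0 CPM in the controls (log2 fold change 0.08, SE 0.07, edgeR adjusted p 0.577). TRIB3, CHAC1 and PPP1R15A, induced by ATF4 or DDIT3, had log2 fold changes of -0.16 (SE 0.13), 0.01 (SE 0.20) and -0.05 (SE 0.07), with overlapping groups.

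At an unadjusted p under 0.05 the branch held 8 of its 16 genes, where the background was 23.2%, and 8 of 16 (50%) did not overlap between the groups, 2 higher and 6 lower, beside 29.3% of all tested genes. Named after their values were seen, 4 of these ran in both directions. NUPR1, a stress-induced chromatin protein, was at 0.801, 0.665 and 0.615 CPM in co-culture and 1.011, 1.88 and 1.42 CPM in the controls (-1.06, SE 0.30, edgeR adjusted p 0.0707). CEBPB, a transcription factor that pairs with DDIT3, stood at -0.42 (SE 0.18, edgeR adjusted p 0.194). ATF3, a stress-induced transcription factor, was at 72.5, 71.5 and 75.5 CPM against 64.9, 41.6 and 41.0 CPM (0.58, SE 0.17, edgeR adjusted p 0.0907), with control 1 the highest control. ASNS, asparagine synthetase, stood at 0.17 (SE 0.06, edgeR adjusted p 0.135). Without control 1, NUPR1, ATF3 and ASNS passed, at -1.25, 0.83 and 0.23 (edgeR adjusted p 0.00594, 8.1e-08 and 0.00362). That setting called 20.8% of all tested genes. ATF3 also passed in DESeq2 (adjusted p 0.00195).

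The thiol redox list had 1 of 18 tested genes past the threshold (5.56%, beside 4.83% of all tested genes) and a median of 0.00. It had 4 at an unadjusted p under 0.05, where the background was 23.2%, and 7 without overlap (38.9%, beside 29.3%). PDIA2, a disulfide isomerase typical of the pancreas, was at 5.35, 6.37 and 5.0 CPM in co-culture and 3.69, 2.61 and 3.15 CPM in the controls. All co-culture values were above all controls, and PDIA2 rose by 0.82 on the log2 scale (SE 0.18, edgeR adjusted p 0.0314). It lost the call with the forward-strand class as a term (0.76, edgeR adjusted p 0.310), with a replicate block (0.82, edgeR adjusted p 0.0963) and without co-culture 1 (0.84), co-culture 2 (0.71), co-culture 3 (0.90) or control 2 (0.70). PRDX4, the ER peroxiredoxin, QSOX1, a sulfhydryl oxidase, and GPX8, an ER peroxidase, did not overlap between the groups, at log2 fold changes of -0.09 (SE 0.06), 0.18 (SE 0.07) and 0.14 (SE 0.07). Their edgeR adjusted p-values were 0.373, 0.153 and 0.229. Without control 1, where 20.8% of all tested genes passed, QSOX1 and GPX8 did so, at 0.21 (edgeR adjusted p 0.0217) and 0.19 (edgeR adjusted p 0.0422).

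The other 6 lists had no gene past the threshold in edgeR. They held 25 genes of the translocon and early secretory pathway (median 0.00; 3 genes at an unadjusted p under 0.05), 12 ER co-chaperones (-0.07; 3), 19 further degradation genes (-0.07; 4), 5 prolyl isomerases (0.14; 2), 4 genes of N-glycan trimming (0.05; 0) and 11 sensors and regulators (-0.03; 5). Of all tested genes, 4.83% passed and 23.2% had an unadjusted p under 0.05. SEC61A1, the pore of the translocon, stood at -0.10 (SE 0.06). Of the J-domain partners of HSPA5, DNAJB9, an IRE1-XBP1 target, stood at -0.23 (SE 0.10, edgeR adjusted p 0.193), DNAJC3 at -0.06 (SE 0.07) and DNAJB11 at -0.16 (SE 0.08, edgeR adjusted p 0.248). DNAJB11 was at 97.7, 97.3 and 92.8 CPM in co-culture and 93.5, 113.9 and 113.9 CPM in the controls. Without control 1, the low one, it passed at -0.25 (edgeR adjusted p 0.00217), as did 20.8% of all tested genes.

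**Figure D5:**
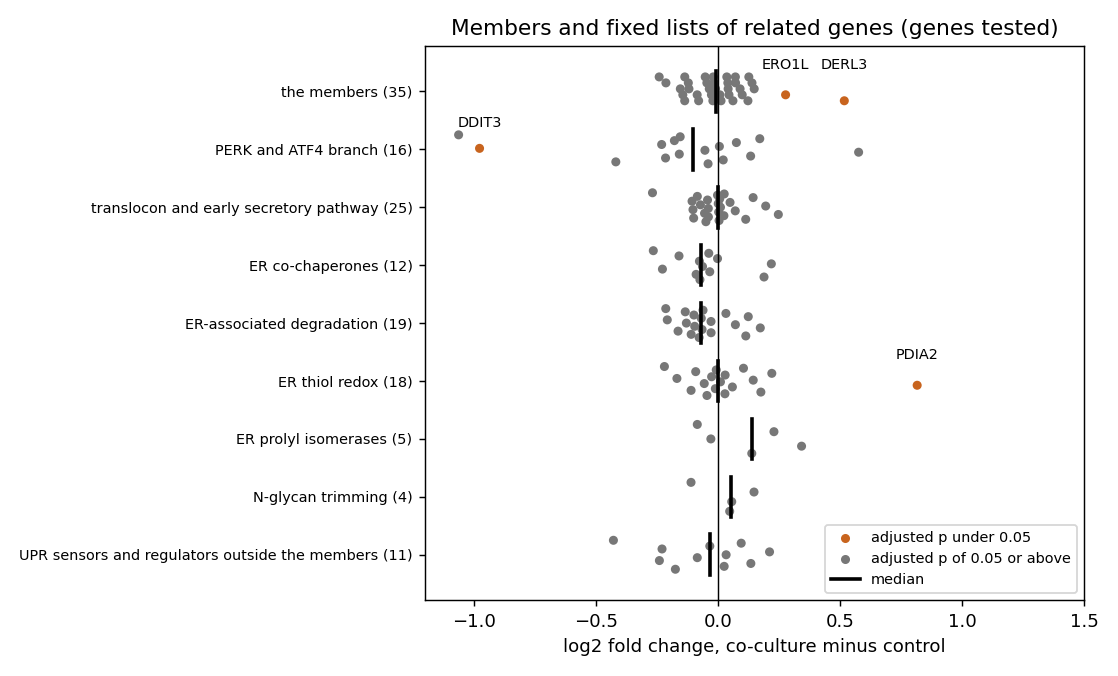
Log2 fold change of every tested gene among the members and the 8 lists (rows, number tested in brackets); orange points had an adjusted p under 0.05 and the black bar is the median. DDIT3 (the orange point at -0.98) and PDIA2 are the 2 genes past the threshold outside the members, and every median lies between -0.10 and 0.14.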

How the data were processed

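The authors deposited 1 file of raw read counts per gene for each of 6 libraries, made with STAR 2.53a on genome build hg18, per the submitters' processing notes; the annotation release is not given in the sources used here. The kit was stranded, per the labels' protocols, so reverse-strand counts were used, and the 4 summary lines were left out. They took 14.8% to 17.7% (no gene), 6.48% to 8.42% (multimapping), 1.22% to 1.67% (unmapped) and 0.835% to 1.012% (ambiguous) of reads. Multimapping and ambiguous reads are not assigned, which lowers genes that share sequence or overlap. A read was worth 0.0279 to 0.0522 CPM.

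Genes were filtered with filterByExpr (minimum count 10), scaled by trimmed means of M-values (TMM) and tested with the quasi-likelihood test of edgeR 4.0.16 under R 4.3.3, fitting the group alone, with Benjamini-Hochberg adjustment over 14582 genes and a threshold of 0.05. SEs are the absolute log2 fold change over the square root of F, and 95% intervals use the fit's degrees of freedom. The alternatives were DESeq2 1.42.0, limma-voom 3.58.1, 2 other scalings, 2 other filters, counts without strand, a replicate block, the forward-strand class and leaving out each library. The test was checked on simulated data.

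The members, lists and tests were chosen with earlier results of these data known. Values in every library are given for genes past the threshold and for a named set written down with the lists. The other genes are summarised, with exceptions that were given per library after their values were seen. These are members whose groups did not overlap, relatives of ERO1L and DERL3, and NUPR1 and ATF3. Libraries of a group differed by 4.73 to 18.5 in chi-square per degree of freedom, more than counting noise, so none was the same library deposited again; repeat preparations from one culture or RNA cannot be told apart. Promoters are from RefSeq (GRCh38.p14), and gene symbols are those in the files. A planned search of protein sequences was not run.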

Additional observations from a re-analysis of the deposited data

How the results depend on the processing

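The log2 fold changes of DERL3 and ERO1L kept their sign in all 15 other settings, while DERL3 kept its call in 11 and ERO1L in 8. The number of members called higher was 2 in the reported fit and in 7 alternatives without a left-out library; it was 1 with the replicate block and 0 with the forward-strand class as a term. With 1 library left out it ran from 0 (without co-culture 1, co-culture 2 or control 2) to 2 (without control 1), and the number called lower from 0 to 1 (HSPA5 without control 1, HERPUD1 without control 3). The median log2 fold change of the members was -0.0428 with total counts and 0.0109 with the forward-strand class, and ran from -0.0262 to 0.0113 with 1 library left out. Over all genes, 704 calls became 164 with the replicate block, 29 with the forward-strand class and 65 to 3069 with 1 library left out (65 without control 2, 74 without co-culture 2, 123 without co-culture 1, 321 without co-culture 3 and 3069 without control 1). Total counts gave 310 higher and 572 lower genes against 388 and 316, and DESeq2 called 1022 genes. Same-numbered libraries did not deviate together (correlations -0.09 to -0.04), and no co-culture library correlated best with its own number. With 3 libraries per group, this check could miss a small shared effect, so it cannot tell whether the numbers pair the samples. TXNDC5 could not be tested at its read count. The smallest change called for any gene in the reported fit was 0.22 on the log2 scale.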
